A study of Mus musculus with 12 samples.

Results

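The comparison set cells treated with an agent that the labels call OAP2 against PBS control cells of the mouse mammary carcinoma line 4T1, by RNA sequencing. The libraries were taken by their labels: 3 of OAP2 and 3 of PBS, 6 of the 12 libraries of the series. All the cells are described as a wild-type adherent 4T1 cell line, a tumour line that grows in BALB/c mice, whereas the design text of the series speaks of a cell-derived xenograft. The control libraries carry PBS in their titles, DMSO as their treatment label and CON in the data table, so the vehicle is not settled. The sources used here give neither dose nor duration, nor what OAP2 is. The other libraries, 3 each of cells treated with agents labelled Oxa and APAP, entered the fit for its estimate of spread. Nothing in the labels says that replicates came from separate cultures, so a p-value speaks only to how far these libraries spread, which may be technical.

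Carcinoma cells of this kind secrete chemokines, colony stimulating factors and prostaglandins, many of them controlled by NF-kB, AP-1 and MAP kinase signalling. Growth and contact signals are read out by immediate early genes and by targets of YAP and TEAD, the transcriptional arm of the Hippo pathway. Unfolded protein in the endoplasmic reticulum (ER) and shortage of amino acids induce chaperones and targets of the transcription factors ATF4 and CHOP, and interferon induces antiviral genes through elements named ISRE.

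The total of estimated counts lay between 67741032 and 71500487 in the OAP2 libraries and between 65834234 and 69579384 in the PBS libraries. PBS 2 stood apart most. Its genes deviated from the mean of the other PBS libraries by a median of 0.299 on the log2 scale, the next highest value being 0.233 in OAP2 3, and the other libraries of the 6 lay between 0.155 and 0.204. OAP2 3 was apart as well. The quality weight of a library, low where it departs from its group, was 0.131 for PBS 2 and 0.239 for OAP2 3. Other libraries of the 6 had weights of 0.879 to 2.31. Markers of red blood cells summed to 0.17 to 0.37 FPKM (fragments scaled to transcript length and library size) in the OAP2 libraries and to 231 FPKM in PBS 2, with at most 0.37 FPKM in any other of the 6 libraries. Neutrophil markers summed to 0.08 to 0.54 FPKM in the OAP2 libraries and to 67.13 FPKM in PBS 2, with S100a8 at 17.77 FPKM and S100a9 at 35.47 FPKM there, and S100a9 was at 0 in every OAP2 library. Macrophage markers summed to 16.28 to 20.69 FPKM in the OAP2 libraries and 12.14 to 46.25 FPKM in the PBS libraries, and Lyz2 stood at 7.55, 7.99 and 8.41 FPKM in OAP2 1 to 3, against 31.01 FPKM in PBS 1, 6.23 FPKM in PBS 2 and 0 FPKM in PBS 3. Epithelial markers, by which the labelled cell type was checked, summed to 1339.49 to 1484.2 FPKM in the OAP2 libraries and 1230.65 to 1532.22 FPKM in the PBS libraries. Markers of dendritic cells, fibroblasts, endothelium, B and plasma cells and T and NK cells each summed to at most 2.56 FPKM in any of the 6. The part that other cells in PBS 2 play in the results was not tested. Values without that library are given for some genes and lists, not for all that it moves. In these bulk samples, fewer cells of a type and less RNA per cell cannot be told apart.

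Genes were tested with edgeR's quasi-likelihood test, and a gene was called, and is said to have risen or fallen, at a Benjamini-Hochberg adjusted p below 0.05 over all 12036 genes tested. After OAP2, 258 genes rose (2.14% of those tested) and 374 fell (3.11%), 632 in all (5.25%). Counts of list members with all libraries are to be read against these shares. Changes were mostly small: the called rises had a median log2 fold change of 0.59 and the called falls of -0.60, and 35 rises (0.291%) and 75 falls (0.623%) exceeded 2-fold. The groups did not overlap in 2253 genes (18.7%), OAP2 lying above PBS in 8.78% of those tested and below it in 9.94%. Leaving out each of the 6 libraries in turn kept 212 genes called in every fit (1.76%), of which 77 rose (0.64%) and 135 fell (1.12%). Without PBS 2, the calls grew to 1976 (16.4%), with 1055 rises (8.77%) and 921 falls (7.65%), the shares against which counts of list members without PBS 2 are to be read. Of the genes called with it, 256 of 258 rises and 367 of 374 falls were still called, and all 632 had the same sign. The number of calls depends on which libraries are fitted. Without OAP2 3, 926 genes were called, 436 rises and 490 falls. A fit to the 6 libraries alone called 38 genes (0.316%), 8 rises and 30 falls. Without PBS 2 that fit, chosen after seeing the data, called 673 genes, 374 rises and 299 falls. Calls said to hold without any 1 library come from fits that keep the Oxa and APAP libraries. In the fit to the 6 alone, 88 genes named by the rule given below lost their call, and 43 stayed called or uncalled. That fit is given by gene for only part of them.

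**Figure D1:**
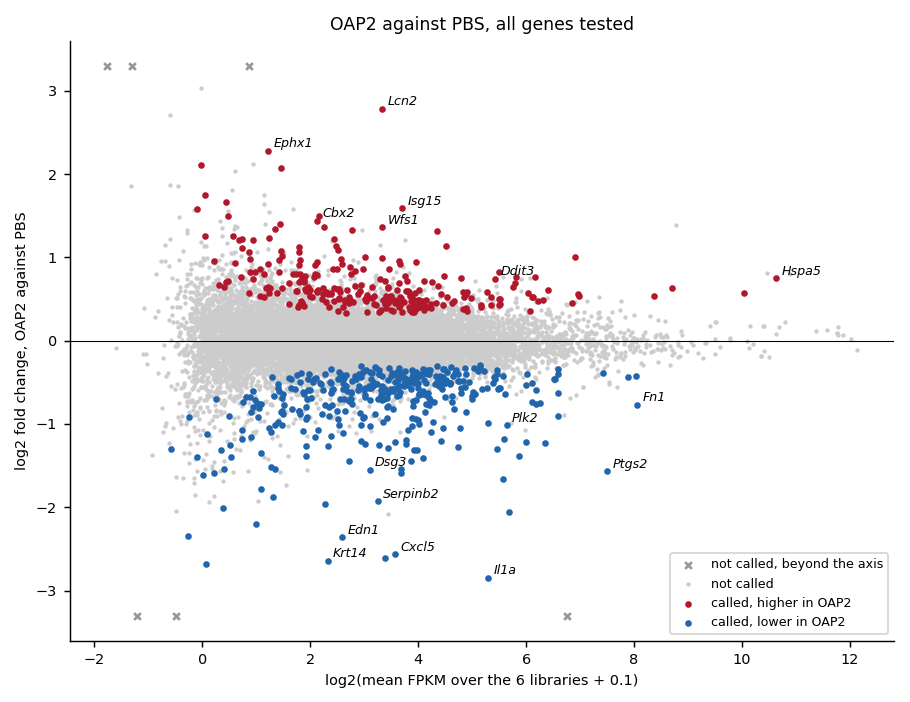
Log2 fold change of each tested gene, OAP2 minus PBS, against its level, log2(mean FPKM of the 6 libraries + 0.1); red points were called higher and blue points lower, grey points were not called, and grey crosses at the edge are genes beyond the axis. Called genes, 258 above 0 and 374 below, lie mostly within 1 log2 unit and occur at all levels.

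Called genes occurred at every level, in 2.54% of the genes with a mean of up to 2 FPKM in 6.39% of those between 20 and 100 FPKM and in 3.92% of those above 100 FPKM. Protein-coding genes made up 254 of the rises and 364 of the falls.

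Of the 15 genes with the smallest p among those called in every fit without 1 library, 13 fell and 2 rose. Dsg3 (chr18:20510274-20547459, plus strand, GRCm38), a cadherin of desmosomes in stratified epithelium, had 4.40, 4.11 and 4.35 FPKM in OAP2 1 to 3, against 11.71, 13.77 and 12.45 FPKM in PBS 1 to 3. The highest OAP2 value was far below the lowest PBS value. The log2 fold change was -1.55 ± 0.10 (SE, n = 3 per group), with an edgeR adjusted p of 1.17e-05. Sox9, a transcription factor of progenitor and mammary stem-like cells, had 8.37, 9.39 and 9.05 FPKM in OAP2 1 to 3, against 23.45, 21.07 and 22.93 FPKM in PBS 1 to 3, with no overlap and a log2 fold change of -1.32 ± 0.11 (edgeR adjusted p = 6.49e-05). Plk2, a polo-like kinase that p53 can induce, had 32.64, 31.74 and 33.72 FPKM in OAP2 1 to 3, against 62.20, 68.60 and 69.46 FPKM in PBS 1 to 3, a log2 fold change of -1.02 ± 0.08 (edgeR adjusted p = 6.49e-05). In these 3 genes PBS 2 lay close to the other controls, and without it the log2 fold changes were -1.48 for Dsg3, -1.36 for Sox9 and -0.99 for Plk2.

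The other steady falls spanned several roles. Csrnp1, a nuclear protein first described as induced by AXIN1, fell by 1.204 on the log2 scale, to 12.38 to 13.09 FPKM in OAP2 cells, against 27.19 to 34.01 FPKM in PBS cells. Col8a1, a short-chain collagen, averaged 11.88 ± 0.47 FPKM in OAP2 cells and 25.57 ± 1.63 FPKM in PBS cells (SD, n = 3 each). Ccbe1, a secreted protein needed for the processing of VEGF-C, averaged 8.26 ± 0.93 FPKM in OAP2 cells and 19.05 ± 2.03 FPKM in PBS cells. Padi1 converts arginine to citrulline in proteins of keratinising cells, and Arl4c is a small GTPase of the ARF family. Padi1 fell by 0.93 and Arl4c by 0.95 on the log2 scale. The other members of this set (Fosl2, Pdgfb, Cavin2, Hbegf and Ankrd1) are described with their families below, and so are the rises Ifi203 and Cbx2.

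**Figure D2:**
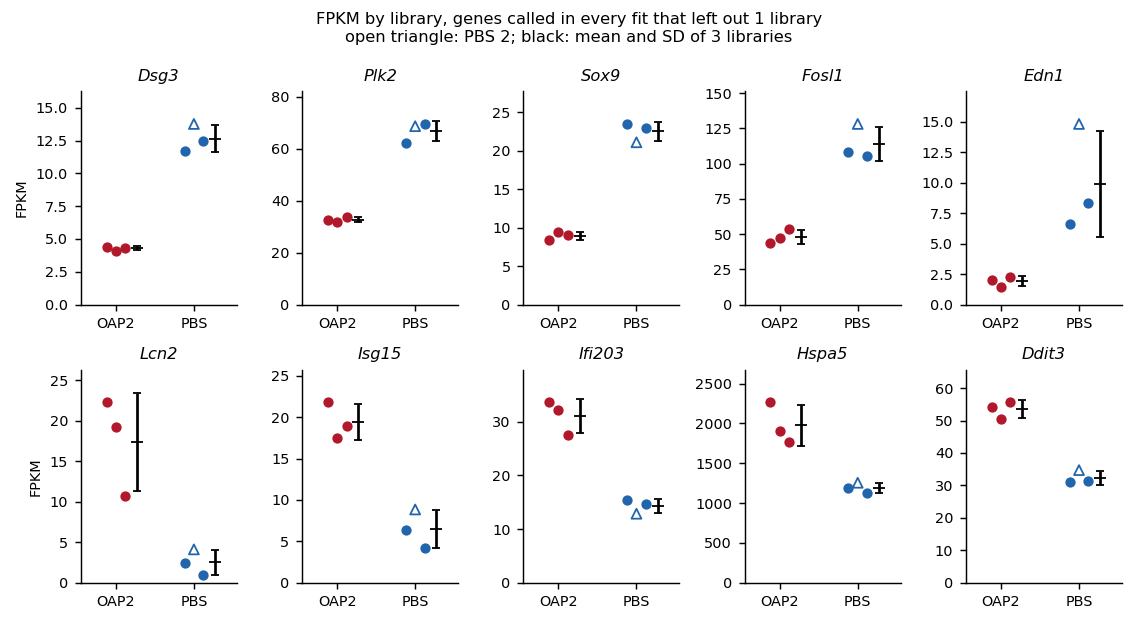
FPKM in each OAP2 library (left) and each PBS library (right) of genes called in every fit that leaves out 1 library; black marks are the mean and SD of 3 libraries and the open triangle is PBS 2. For Dsg3, OAP2 libraries lie between 4.11 and 4.40 FPKM and PBS libraries between 11.71 and 13.77 FPKM, and PBS 2 sits among the controls.

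Immediate early genes are switched on within minutes of growth factor signalling, and here 8 of 18 tested members fell and none rose, against 3.11% of all genes that fell. Their median log2 fold change was -0.60, and -0.46 without PBS 2, when 10 fell and 1 rose. Fosl1, an AP-1 subunit linked to invasion, had 43.65, 47.02 and 53.28 FPKM in OAP2 1 to 3, against 108.18, 128.13 and 105.42 FPKM in PBS 1 to 3. All PBS values were above all OAP2 values, and the log2 fold change was -1.23 ± 0.17 (edgeR adjusted p = 0.00151). Its paralog Fosl2 had 10.13, 11.04 and 10.70 FPKM in OAP2 1 to 3, against 20.57, 20.17 and 23.77 FPKM in PBS 1 to 3, a log2 fold change of -1.002 ± 0.09 (edgeR adjusted p = 8.13e-05). Myc, the growth-promoting transcription factor, was among the more abundant members, with 209.78, 218.18 and 237.73 FPKM in OAP2 1 to 3, against 286.14, 310.44 and 307.76 FPKM in PBS 1 to 3, and fell by 0.43. Ier5 fell by 0.74 and Klf6, a zinc finger tumour suppressor, by 0.76. Zfp36, which destabilises cytokine mRNAs, fell by 0.69, and the small MAF protein Maff by 0.55. Junb, another AP-1 subunit, had 68.94, 66.66 and 64.77 FPKM in OAP2 1 to 3, against 93.29, 193.48 and 91.16 FPKM in PBS 1 to 3. PBS 2 was the highest by far, and Junb fell by 0.90 with it and by 0.45 without it. The calls of Fosl2, Ier5, Fosl1 and Klf6 held without any 1 of the 6 libraries. The call of Klf6 ended in the fit to the 6 libraries alone (edgeR adjusted p = 0.126). That of Myc ended without OAP2 1 (edgeR adjusted p = 0.0559), those of Zfp36 and Maff without PBS 1, OAP2 1 or OAP2 2 (edgeR adjusted p up to 0.0805 and 0.124), and that of Junb without any 1 of the OAP2 libraries (edgeR adjusted p up to 0.104).

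MAP kinase signalling induces its own inhibitors, and 5 of 17 members of that list fell while none rose. Their median log2 fold change was -0.42, and -0.29 without PBS 2, when 6 fell. Dusp1, a phosphatase of p38 and JNK, had 2.13, 1.93 and 2.06 FPKM in OAP2 1 to 3, against 5.99, 3.93 and 6.19 FPKM in PBS 1 to 3, a log2 fold change of -1.38 ± 0.21 (edgeR adjusted p = 0.00292). Dusp8, of the same phosphatase family, fell by 0.97. Errfi1, an inhibitor of the EGF receptor, had 33.90, 31.44 and 31.33 FPKM in OAP2 1 to 3, against 57.28, 136.72 and 60.30 FPKM in PBS 1 to 3. PBS 2 was more than 2 times the other controls here, and the fall was 1.38 with it and 0.85 without it on the log2 scale. Spry2 fell by 0.55 and the ERK phosphatase Dusp7 by 0.51. The calls of Spry2 and Dusp7 ended without PBS 1, OAP2 1 or OAP2 2, and that of Dusp7 also without PBS 3 (edgeR adjusted p up to 0.104 and 0.143).

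Among EGF family ligands and receptors, 2 of 8 tested members fell, both of them ligands, and none rose. Hbegf, a ligand of the EGF receptor shed from the membrane, had 12.97, 14.08 and 15.61 FPKM in OAP2 1 to 3, against 26.14, 33.73 and 29.10 FPKM in PBS 1 to 3, a log2 fold change of -1.05 ± 0.12 (edgeR adjusted p = 0.000469). Nrg1, a ligand of ERBB3 and ERBB4, fell by 1.02 from a low level, 1.36 to 2.01 FPKM in OAP2 cells against 2.92 to 3.67 FPKM in PBS cells. The median of the 8 members was 0.08, close to that of all genes (-0.001).

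Of 18 tested targets of YAP and TEAD, 5 fell and none rose, and without PBS 2 there were 8 falls, with medians of -0.30 and -0.29. Ankrd1, a nuclear ankyrin repeat protein often used to read YAP activity, had 27.12, 24.82 and 26.26 FPKM in OAP2 1 to 3, against 42.93, 56.56 and 57.89 FPKM in PBS 1 to 3, a log2 fold change of -0.99 ± 0.11 (edgeR adjusted p = 0.000554). Ccn2, a matricellular growth factor also known as CTGF, had 22.83, 19.59 and 16.62 FPKM in OAP2 1 to 3, against 39.48, 165.78 and 41.68 FPKM in PBS 1 to 3. The groups did not overlap, but PBS 2 lay far above the other controls, and the log2 fold change was -2.05 with it and -1.03 without it. Lats2, a Hippo kinase that restrains YAP, fell by 0.59, and Amotl2, which binds YAP, by 0.52. Axl, a receptor tyrosine kinase, fell by 0.46. The call of Ccn2 ended without OAP2 1 or OAP2 2 (edgeR adjusted p up to 0.0681) and that of Axl without PBS 1, PBS 3 or OAP2 2 (edgeR adjusted p up to 0.0902).

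Promoters are given for 5 called genes from 4 of the lists, because each holds a motif of a factor known to act on its list. Of other called genes drawn up for display, Ifih1 (ISRE) and Tnfaip3 (NF-kB) also held a match, and none was found in the windows of Oasl2 (ISRE), Lcn2 (NF-kB), Edn1 (AP-1), Ddit3 and Ppp1r15a (ATF4 or CHOP). They come from RefSeq (GRCm38.p6), 250 bases before to 50 bases after the start, and 8356 of the 12036 tested genes have one. Each motif was searched on both strands, and a match is a description of letters, not a binding site or a cause. The Ankrd1 promoter holds the TEAD motif GGAATG (capitals) at positions -210 and -123 from the start. That motif is in 13.1% of promoters of called falls, 13.7% of those of called rises, 11.4% of those of tested genes and 14.6% of all 27025. Of the 13 YAP and TEAD target promoters it is in 8, those of the called Ankrd1, Lats2, Amotl2 and Axl among them. Also searched were the AP-1 motif TGANTCA, in 3.79% of promoters of called falls, 8.78% of those of called rises and 4.66% of those of tested genes. Among genes called in every fit without 1 library, it is in 7.07% of promoters of falls and 12.7% of those of rises. The CRE motif TGACGTCA is in 3.1% of promoters of called falls, 1.95% of those of called rises and 3.61% of those of tested genes. The ATF4 or CHOP motif TGATGNAA is in 3.41% of promoters of called rises, 1.72% of those of called falls and 2.06% of those of tested genes, and the NRF2 motif TGACNNNGC in 17.1% of promoters of called rises, 15.5% of those of called falls and 15.0% of those of tested genes.
Ankrd1 promoter (chr19:36119795-36120094, minus strand): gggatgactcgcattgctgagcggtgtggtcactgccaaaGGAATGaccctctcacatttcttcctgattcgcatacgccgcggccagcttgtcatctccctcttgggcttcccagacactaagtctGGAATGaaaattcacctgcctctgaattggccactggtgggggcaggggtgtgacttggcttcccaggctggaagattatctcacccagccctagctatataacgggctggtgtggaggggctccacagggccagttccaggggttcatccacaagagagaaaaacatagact

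TGF-beta signalling controls matrix production and epithelial plasticity, and 6 of 17 members of its list fell while none rose, with a median log2 fold change of -0.21. Inhba, a subunit of activin, had 6.81, 6.06 and 8.28 FPKM in OAP2 1 to 3, against 11.95, 22.52 and 15.18 FPKM in PBS 1 to 3, a log2 fold change of -1.22 ± 0.20 (edgeR adjusted p = 0.00486). Bhlhe40, a transcriptional repressor of the clock and of hypoxia, fell by 1.25, and by 0.82 without PBS 2. Ltbp2, a matrix protein related to the TGF-beta binding proteins, fell by 1.26. Pmepa1, an inhibitor of the pathway, fell by 0.72, the receptor Tgfbr2 by 0.34 and the inhibitor Smad7 by 0.46. The calls of Pmepa1, Tgfbr2 and Smad7 ended without OAP2 1 (edgeR adjusted p = 0.0722, 0.0917 and 0.134), those of Tgfbr2 and Smad7 also without OAP2 2, that of Tgfbr2 also without PBS 3 or OAP2 3, and that of Smad7 also without PBS 1. The list had 6 falls and 2 rises without PBS 2, when 7.65% of all genes fell and 8.77% rose.

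The plasminogen system dissolves fibrin and matrix around invading cells. Of 10 tested plasminogen activators and serpins, 2 fell and none rose. Plau, the urokinase activator, had 32.32, 27.15 and 27.92 FPKM in OAP2 1 to 3, against 55.48, 84.85 and 59.53 FPKM in PBS 1 to 3, a log2 fold change of -1.18 ± 0.17 (edgeR adjusted p = 0.00203). Serpinb2, an inhibitor of urokinase, had 3.58, 2.57 and 5.53 FPKM in OAP2 1 to 3, against 13.46, 16.47 and 15.03 FPKM in PBS 1 to 3, a log2 fold change of -1.93 ± 0.23 (edgeR adjusted p = 0.000638). The activator and its inhibitor were thus both lower in every OAP2 library than in any PBS library. Klk10, a secreted serine protease of epithelia outside this list, fell by 1.54, with 5.37 to 7.85 FPKM in OAP2 cells against 15.38 to 24.43 FPKM in PBS cells.

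Of 7 tested angiogenic ligands, 3 fell and none rose, with a median of -0.37. Edn1 (chr13:42301476-42307990, plus strand), the precursor of the vasoconstrictor endothelin-1, had 1.98, 1.46 and 2.27 FPKM in OAP2 1 to 3, against 6.57, 14.81 and 8.34 FPKM in PBS 1 to 3. PBS 2 was the highest control, and the log2 fold change was -2.36 ± 0.28 (edgeR adjusted p = 0.000643), and -1.95 without it. Pdgfb, a growth factor for pericytes, had 3.89, 3.74 and 3.78 FPKM in OAP2 1 to 3, against 7.68, 7.48 and 9.61 FPKM in PBS 1 to 3, a log2 fold change of -1.10 ± 0.12. Vegfc, a lymphatic growth factor, fell by 0.88. Leaving out PBS 2 gave 4 falls.

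Among 21 tested matrix proteins, laminins and integrins, 3 fell and none rose, around a median of -0.02. Itga2, the collagen-binding integrin subunit, averaged 6.20 ± 1.23 FPKM in OAP2 cells and 15.29 ± 4.16 FPKM in PBS cells (SD, n = 3 each), a log2 fold change of -1.29 ± 0.19 (edgeR adjusted p = 0.00214). Lama3, a chain of the basement membrane laminin of epithelia, fell by 0.65. Thbs1, a matricellular protein that activates latent TGF-beta, had 27.55, 25.67 and 14.67 FPKM in OAP2 1 to 3, against 41.56, 128.19 and 46.62 FPKM in PBS 1 to 3, and fell by 1.66 with PBS 2 and by 0.95 without it. The call of Lama3 ended without OAP2 1 (edgeR adjusted p = 0.0541), and that of Thbs1 without OAP2 1 or OAP2 2 (edgeR adjusted p up to 0.0551).

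None of the 12 tested matrix metalloproteinases, related proteases and inhibitors was called, and their median was -0.11. The smallest p-values belonged to Adam17, a sheddase of EGF ligands, at 0.39 (edgeR adjusted p = 0.0534), and Mmp24, at -1.08 (edgeR adjusted p = 0.0546). Mmp24 had 3.10, 3.88 and 3.72 FPKM in OAP2 1 to 3, against 4.83, 12.93 and 5.06 FPKM in PBS 1 to 3. With PBS 2 left out both were called, Adam17 at 0.45 (edgeR adjusted p = 0.0142) and Mmp24 at -0.46 (edgeR adjusted p = 0.0411). Of the 8 tested caveolar genes, 1 fell, against 3.11% of all genes. Cavin2, a coat protein of caveolae, had 1.25, 1.10 and 1.37 FPKM in OAP2 1 to 3, against 3.32, 3.43 and 4.14 FPKM in PBS 1 to 3, a log2 fold change of -1.54 ± 0.17 (edgeR adjusted p = 0.000358). Its family member Cavin3 had a log2 fold change of 0.75 in the other direction, not called (edgeR adjusted p = 0.0622), but called at 1.07 without PBS 2 (edgeR adjusted p = 0.00119).

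**Figure D3:**
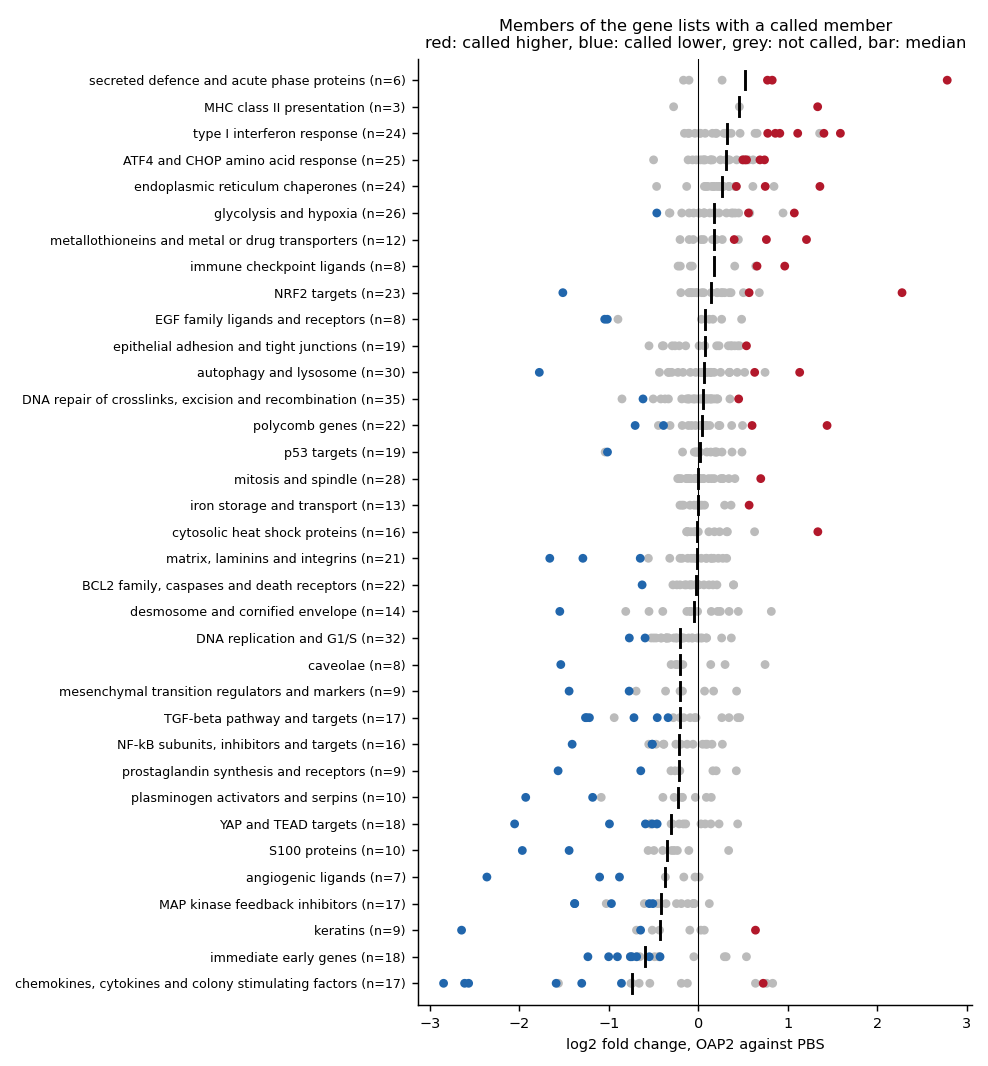
Log2 fold change, OAP2 minus PBS, of each tested member of the gene lists with a called member; red was called higher, blue lower, grey not called, and the bar is the median. Immediate early genes (median -0.60, 8 of 18 lower) and the amino acid response (median 0.31, 5 of 25 higher) stand on opposite sides of 0, where the median of all genes lies.

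Of 17 tested chemokines, cytokines and colony stimulating factors, 6 fell and 1 rose, with a median log2 fold change of -0.74, and -0.71 without PBS 2, when 6 fell and 2 rose. Cxcl5, a chemokine that attracts neutrophils, had 3.98, 3.00 and 3.18 FPKM in OAP2 1 to 3, against 13.02, 37.37 and 10.21 FPKM in PBS 1 to 3. Even the lowest control was more than 2 times the highest OAP2 library, and the log2 fold change was -2.57 ± 0.40 (edgeR adjusted p = 0.00306), and -1.77 without PBS 2. Lif, a cytokine of the interleukin 6 family, had 28.53, 27.07 and 19.70 FPKM in OAP2 1 to 3, against 51.29, 83.40 and 52.67 FPKM in PBS 1 to 3, a log2 fold change of -1.30 ± 0.19 (edgeR adjusted p = 0.00207). Csf3, the granulocyte colony stimulating factor, had 14.55, 12.11 and 10.33 FPKM in OAP2 1 to 3, against 19.89, 27 and 20.75 FPKM in PBS 1 to 3, and fell by 0.86. These 3 calls held without any 1 of the 6 libraries. None of them was made in the fit to the 6 libraries alone (edgeR adjusted p = 0.066 for Cxcl5, 0.0659 for Lif and 0.108 for Csf3).

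The other chemokine and cytokine calls leaned on single libraries. Cxcl1 had 3.67, 2.94 and 2.04 FPKM in OAP2 1 to 3, against 7.90, 39.52 and 5.81 FPKM in PBS 1 to 3, and its log2 fold change was -2.61 with PBS 2 and -1.24 without it. Il1a, an alarm cytokine of epithelia, had 10.46, 9.69 and 8.40 FPKM in OAP2 1 to 3, against 18.90, 178.41 and 9.32 FPKM in PBS 1 to 3. Its groups overlapped, PBS 2 was by far the highest of the 6 libraries, and the log2 fold change of -2.85 (edgeR adjusted p = 0.0486) became -0.57 without PBS 2, no longer called (edgeR adjusted p = 0.132). Cxcl3, at or below 0.62 FPKM in OAP2 cells and between 0.87 and 2.57 FPKM in PBS cells, fell by 1.59. The single rise was Cx3cl1, a membrane-bound chemokine, by 0.73. Cxcl1, Cxcl3 and Il1a lost their calls without any 1 of the OAP2 libraries (edgeR adjusted p up to 0.0792, 0.113 and 0.148), and Cxcl3 also without PBS 1. Cx3cl1 lost its call without PBS 3, OAP2 1 or OAP2 2 (edgeR adjusted p up to 0.0927). Without PBS 2, Cxcl1, Cxcl3 and Cx3cl1 stayed called (edgeR adjusted p = 0.0108, 0.00306 and 0.0136). In PBS 2, where Cxcl1 and Il1a were highest, neutrophil markers summed to 67.13 FPKM, against at most 0.54 FPKM in the OAP2 libraries, and their part in these values was not tested.

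The Cxcl1 promoter holds a loose NF-kB motif (GGG, any 2 bases, TTTCC, in capitals, the first match read on the other strand) at positions -89 and -71. That motif is in 2.76% of promoters of called falls, 1.46% of those of called rises, 1.64% of those of tested genes and 1.62% of all. It is in 5 of 11 promoters of the chemokine and cytokine list, those of the called Cxcl1 and Cxcl3 among them. A stricter form, GGGA, any 1 base and TTTCC, is in 1.38% of promoters of called falls and 0.385% of all. Among the 99 falls with a promoter that were called in every fit without 1 library, the loose form is in 1.01% and the strict form in 0.
Cxcl1 promoter (chr5:90890995-90891294, plus strand): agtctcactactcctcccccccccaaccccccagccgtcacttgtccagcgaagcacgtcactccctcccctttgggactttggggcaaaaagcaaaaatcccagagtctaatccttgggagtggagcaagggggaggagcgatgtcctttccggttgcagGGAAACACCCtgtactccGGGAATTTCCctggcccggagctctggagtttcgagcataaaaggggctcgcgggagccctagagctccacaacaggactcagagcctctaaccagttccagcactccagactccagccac

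NF-kB subunits, inhibitors and targets had 3 falls and no rise among 16 tested members, and their median of -0.22 became -0.04 without PBS 2. Tnfaip3, which shuts NF-kB signalling off, had 9.56, 9.39 and 8.54 FPKM in OAP2 1 to 3, against 17.86, 34.13 and 21.78 FPKM in PBS 1 to 3, a log2 fold change of -1.41 ± 0.18 (edgeR adjusted p = 0.000956). Traf1, an adaptor of TNF receptors, fell by 0.52 and Vcam1, an adhesion receptor for leukocytes, by 0.51, the call of Vcam1 ending without OAP2 1 (edgeR adjusted p = 0.0672). Of 9 tested genes of prostaglandin synthesis and reception, 2 fell and none rose. Pla2g4a, the phospholipase that frees arachidonic acid, had 12.13, 12.25 and 14.91 FPKM in OAP2 1 to 3, against 19.16, 20.60 and 22.23 FPKM in PBS 1 to 3, a log2 fold change of -0.64 ± 0.10 (edgeR adjusted p = 0.00309). Ptgs2, the inducible cyclooxygenase, had 109.32, 87.62 and 76.22 FPKM in OAP2 1 to 3, against 136.37, 527.47 and 151.52 FPKM in PBS 1 to 3. PBS 2 lay far above the other controls, and the fall of 1.57 became 0.65 without it, and its call ended without any 1 of the OAP2 libraries (edgeR adjusted p up to 0.122). Rgs16, an inhibitor of G protein signalling that belongs to no list, was also highest in PBS 2, falling by 1.59 with PBS 2 and by 0.71 without it, and its call ended without OAP2 1 or OAP2 2 (edgeR adjusted p up to 0.101).

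**Figure D4:**
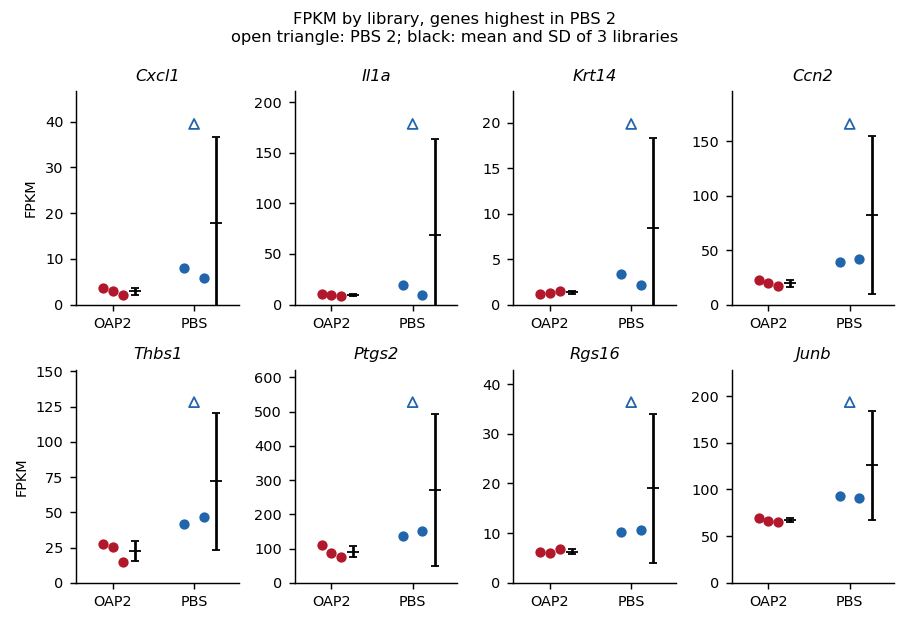
FPKM in each OAP2 library (left) and each PBS library (right) of genes in which PBS 2, the open triangle, lies far above the other controls; black marks are the mean and SD of 3 libraries, the SD cut off at an axis value of 0. For Il1a, PBS 2 is at 178.41 FPKM and the other PBS libraries at 18.90 and 9.32 FPKM, against 8.40 to 10.46 FPKM in the OAP2 libraries.

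Secreted defence proteins moved the other way: 3 of 6 tested members rose and none fell, against 2.14% of all genes that rose. Lcn2 (chr2:32384633-32387797, minus strand), which binds iron-carrying siderophores of bacteria, had 22.30, 19.21 and 10.67 FPKM in OAP2 1 to 3, against 2.45, 4.12 and 1.00 FPKM in PBS 1 to 3. The groups lay well apart, and the log2 fold change of 2.78 ± 0.43 (edgeR adjusted p = 0.0031) was the highest among the genes named by size. It was 3.32 without PBS 2. Slpi, an inhibitor of leukocyte proteases, had 60.03, 58.00 and 54.11 FPKM in OAP2 1 to 3, against 27.53, 43.96 and 26.38 FPKM in PBS 1 to 3, and rose by 0.83, and by 1.10 without PBS 2. Clu, an extracellular chaperone, rose by 0.77, a call that ended without PBS 3, OAP2 1 or OAP2 2 (edgeR adjusted p up to 0.0783). In the fit to the 6 libraries alone none of these 3 genes was called (edgeR adjusted p = 0.0659 for Lcn2, 0.137 for Slpi and 0.147 for Clu).

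Keratins, desmosomes and junctions were mixed. Of 9 tested keratins, 1 rose and 2 fell, and the median of -0.43 became 0.05 without PBS 2. Krt14, a basal keratin, had 1.2, 1.31 and 1.5 FPKM in OAP2 1 to 3, against 3.37, 19.87 and 2.12 FPKM in PBS 1 to 3, so that the log2 fold change was -2.65 with PBS 2 and -1.03 without it. Krt80 fell by 0.65, and Krt19, a luminal keratin, rose by 0.64, with 63.69 to 68.88 FPKM in OAP2 cells against 32.91 to 49.28 FPKM in PBS cells. All 3 keratin calls ended without OAP2 1, those of Krt14 and Krt80 also without OAP2 2 (edgeR adjusted p up to 0.101 for Krt14, 0.0746 for Krt80 and 0.0664 for Krt19). Of 14 desmosomal and cornified envelope genes, Dsg3 alone was called, and Ppl, a plakin, had a log2 fold change of 0.45 (edgeR adjusted p = 0.0515). Of 19 genes of epithelial adhesion and tight junctions, 1 rose, against 2.14% of all genes. Epcam had 149.56, 142.21 and 152.36 FPKM in OAP2 1 to 3, against 98.34, 119.88 and 90.16 FPKM in PBS 1 to 3, a log2 fold change of 0.54 (edgeR adjusted p = 0.0191). That call ended without PBS 1, PBS 3, OAP2 1 or OAP2 2 (edgeR adjusted p up to 0.0639), and without PBS 2 the list had 5 rises and 3 falls. Cldn3, of tight junctions, had a log2 fold change of 0.44 (edgeR adjusted p = 0.0533).

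Of 9 tested regulators and markers of mesenchymal transition, 2 fell and none rose. Fn1, fibronectin, had 217.56, 214.21 and 152.01 FPKM in OAP2 1 to 3, against 334.52, 301.05 and 371.38 FPKM in PBS 1 to 3, a log2 fold change of -0.77 ± 0.13 (edgeR adjusted p = 0.00607). S100a4, a calcium-binding protein of motile cells, had 8.02, 4.57 and 10.58 FPKM in OAP2 1 to 3, against 17.72, 23.12 and 22.93 FPKM in PBS 1 to 3, a log2 fold change of -1.44 ± 0.29 (edgeR adjusted p = 0.0113). Without PBS 2 the list had 4 falls and 1 rise, with a median of -0.44 in place of -0.20. Among 10 tested S100 proteins, S100a4 and S100a7a fell and none rose, with a median of -0.35. S100a7a, a protein of inflamed skin, had 1.31, 1.04 and 3.38 FPKM in OAP2 1 to 3, against 7.77, 5.95 and 9.11 FPKM in PBS 1 to 3. OAP2 3 was the highest of its group, and the log2 fold change was -1.97 ± 0.35 (edgeR adjusted p = 0.00712), and -2.66 without that library. Without OAP2 3 the S100 list had 5 falls, and without PBS 2 it had 4.

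Some antiviral genes rose. Of 24 tested members of the type I interferon response, 6 rose and none fell, and 20 had a positive log2 fold change, with a median of 0.32. Isg15 (chr4:156199455-156200796, minus strand), a ubiquitin-like protein, had 21.81, 17.45 and 18.97 FPKM in OAP2 1 to 3, against 6.37, 8.85 and 4.22 FPKM in PBS 1 to 3. The lowest OAP2 library stood at nearly 2 times the highest control, and the log2 fold change was 1.59 ± 0.25 (edgeR adjusted p = 0.00366). Rsad2, the antiviral protein viperin, had 4.96, 3.89 and 2.56 FPKM in OAP2 1 to 3, against 1.83, 1.11 and 1.38 FPKM in PBS 1 to 3, and rose by 1.40. Ifih1, the RNA sensor MDA5, had 4.55, 4.77 and 3.73 FPKM in OAP2 1 to 3, against 2.14, 2.75 and 2.11 FPKM in PBS 1 to 3, and rose by 0.91. These 3 calls held without any 1 of the 6 libraries. None of them was made in the fit to the 6 libraries alone (edgeR adjusted p = 0.066 for Isg15, 0.0975 for Rsad2 and 0.0719 for Ifih1). Ifi27 rose by 0.78, Oasl2 by 1.11 and Ifi35 by 0.86. Their calls ended without OAP2 1 (edgeR adjusted p = 0.0557 for Ifi27, and up to 0.0771 for Oasl2 and 0.135 for Ifi35), that of Oasl2 also without OAP2 2, and that of Ifi35 without any of the libraries except PBS 2. With PBS 2 left out, 9 members rose. Ifi203, a DNA-binding protein of the interferon-inducible p200 family that is not in the list, also rose, with 33.65, 32.14 and 27.55 FPKM in OAP2 1 to 3, against 15.35, 12.86 and 14.65 FPKM in PBS 1 to 3, a log2 fold change of 1.14 ± 0.11 (edgeR adjusted p = 0.00016). Its family holds near-identical copies, so its counts are less certain.

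The promoters of Isg15 and Rsad2 hold the ISRE core (GAAA, any 2 bases, GAAA, in capitals), 3 overlapping matches at positions -78, -72 and -66 in Isg15 and 1 match read on the other strand at position -120 in Rsad2. That core is in 5.37% of promoters of called rises, 3.1% of those of called falls, 2.84% of those of tested genes and 3.49% of all. Among genes called in every fit without 1 library, it is in 11.1% of promoters of rises and 5.05% of those of falls. It is in 11 of 20 promoters of the interferon list, those of the called Ifih1, Isg15 and Rsad2 among them.
Isg15 promoter (chr4:156200769-156201068, minus strand): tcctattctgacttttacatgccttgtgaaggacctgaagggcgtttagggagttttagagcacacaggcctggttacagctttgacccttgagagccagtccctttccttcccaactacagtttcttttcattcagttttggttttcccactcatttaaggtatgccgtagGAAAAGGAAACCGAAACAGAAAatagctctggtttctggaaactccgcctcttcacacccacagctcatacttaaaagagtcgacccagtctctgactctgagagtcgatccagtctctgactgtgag
Rsad2 promoter (chr12:26456403-26456702, minus strand): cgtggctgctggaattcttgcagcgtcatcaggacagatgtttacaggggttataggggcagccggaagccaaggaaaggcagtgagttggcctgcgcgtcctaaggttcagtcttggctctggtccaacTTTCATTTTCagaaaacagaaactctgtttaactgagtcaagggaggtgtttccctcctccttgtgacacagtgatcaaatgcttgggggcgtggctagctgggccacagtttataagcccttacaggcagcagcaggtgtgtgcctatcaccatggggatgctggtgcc

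Few genes of antigen presentation were called. None of 16 tested MHC class I genes was called, but 12 had a positive log2 fold change, with a median of 0.29. B2m, the light chain of class I molecules, had 278.12, 252.18 and 316.70 FPKM in OAP2 1 to 3, against 216.61, 251.67 and 222.35 FPKM in PBS 1 to 3, with a log2 fold change of 0.31 (edgeR adjusted p = 0.118), and H2-M3 had -0.50 (edgeR adjusted p = 0.0998). Without PBS 2 the list had 4 rises and 1 fall, B2m (0.38) and H2-M3 (-0.64) among them, when 8.77% of all genes rose and 7.65% fell. Of 3 tested class II genes, Cd74, the invariant chain, rose by 1.33, with 6.72 to 12.99 FPKM in OAP2 cells against 2.76 to 5.61 FPKM in PBS cells, a call that ended without OAP2 1 (edgeR adjusted p = 0.0701). H2-DMa of that list had a log2 fold change of 0.46 (edgeR adjusted p = 0.433). Cd74 is also a marker of macrophages and B cells, and the marker sums of those cells were 16.28 to 20.69 FPKM and at most 0.22 FPKM in the OAP2 libraries, against 12.14 to 46.25 FPKM and at most 0.66 FPKM in the PBS libraries. Of 8 tested immune checkpoint ligands, 2 rose and none fell. Cd47, a signal against phagocytosis, had 27.25, 23.80 and 23.93 FPKM in OAP2 1 to 3, against 17.22, 15.05 and 15.67 FPKM in PBS 1 to 3, a log2 fold change of 0.66 ± 0.10 (edgeR adjusted p = 0.00266). Tnfsf9, the ligand of the receptor 4-1BB, rose by 0.97, a call that ended without PBS 3, OAP2 1 or OAP2 2 (edgeR adjusted p up to 0.115).

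Chaperones of the ER rose in part. Of 24 tested members, 3 rose and none fell, and 22 had a positive log2 fold change, with a median of 0.26. Hspa5, the main ER chaperone BiP, had 2267.40, 1901.99 and 1771.20 FPKM in OAP2 1 to 3, against 1186.69, 1255.41 and 1122.23 FPKM in PBS 1 to 3. PBS 2 lay with the other controls, and the log2 fold change was 0.75 ± 0.13 (edgeR adjusted p = 0.00607), and 0.79 without it. Wfs1, an ER membrane protein, had 17.89, 14.71 and 10.30 FPKM in OAP2 1 to 3, against 6.31, 4.39 and 6.15 FPKM in PBS 1 to 3, a log2 fold change of 1.36 ± 0.18 (edgeR adjusted p = 0.00134). Atf6, a sensor of unfolded protein, rose by 0.43, a call that ended without PBS 3 or OAP2 2 (edgeR adjusted p up to 0.0726). With PBS 2 left out, 7 members rose. In the fit to the 6 libraries alone none of these 3 genes was called (edgeR adjusted p = 0.0782 for Hspa5, 0.0559 for Wfs1 and 0.215 for Atf6). The Hspa5 promoter holds the ER stress element (CCAAT, any 9 bases, CCACG, in capitals) at position -65. It is in 8 of 21 promoters of this list, Hspa5 being the only called gene among those 8, and in 0.13% of all promoters.
Hspa5 promoter (chr2:34771840-34772139, plus strand): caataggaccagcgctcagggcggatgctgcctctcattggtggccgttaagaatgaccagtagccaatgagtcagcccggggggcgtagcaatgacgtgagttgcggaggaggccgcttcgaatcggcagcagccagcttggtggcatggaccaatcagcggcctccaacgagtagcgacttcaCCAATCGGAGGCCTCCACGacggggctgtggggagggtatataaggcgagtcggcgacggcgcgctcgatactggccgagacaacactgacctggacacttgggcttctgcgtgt

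The amino acid response downstream of ATF4 and CHOP had 5 rises and no fall among 25 tested members, with a median of 0.31, and without PBS 2 it had 14 rises, with a median of 0.46. Ddit3, which encodes CHOP, had 54.32, 50.45 and 55.67 FPKM in OAP2 1 to 3, against 30.92, 34.72 and 31.27 FPKM in PBS 1 to 3, a log2 fold change of 0.74 ± 0.09 (edgeR adjusted p = 0.000654). Ppp1r15a, which helps restart translation, had 82.76, 76.47 and 85.75 FPKM in OAP2 1 to 3, against 56.02, 63.30 and 52.78 FPKM in PBS 1 to 3, and rose by 0.52. Stc2, a secreted glycoprotein induced by ER stress, rose by 0.69. Slc3a2, the heavy chain of amino acid exchangers, had 392.70, 357.13 and 425.97 FPKM in OAP2 1 to 3, against 288.87, 272.94 and 253.57 FPKM in PBS 1 to 3, and rose by 0.54. Nupr1, a small stress protein, rose by 0.50. The calls of Slc3a2 and Nupr1 ended without PBS 3 (edgeR adjusted p = 0.0519 and 0.0631). Those of Ddit3, Ppp1r15a and Stc2 held without any 1 of the 6 libraries. In the fit to the 6 libraries alone Ddit3 stayed called (edgeR adjusted p = 0.0429), but not Ppp1r15a (edgeR adjusted p = 0.145) or Stc2 (edgeR adjusted p = 0.0782).

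Targets of NRF2, the regulator of antioxidant genes, had 2 rises and 1 fall among 23 tested members, with a median of 0.14. Ephx1, which hydrolyses epoxides, had 4.35, 4.43 and 2.26 FPKM in OAP2 1 to 3, against 0.88, 0.96 and 0.43 FPKM in PBS 1 to 3. Every OAP2 library was at more than 2 times the highest control, and the log2 fold change was 2.28 ± 0.35 (edgeR adjusted p = 0.00328). In the fit to the 6 libraries alone Ephx1 was not called (edgeR adjusted p = 0.0659). Ftl1, the ferritin light chain and also the 1 called gene among 13 of iron storage and transport, had 1224.32, 1120.94 and 1414.61 FPKM in OAP2 1 to 3, against 886.93, 854.36 and 815.54 FPKM in PBS 1 to 3, and rose by 0.57. Ferritin light chain has many near-identical pseudogenes, so its counts are less certain. Gsta1, a glutathione transferase, fell by 1.51, a call lost without PBS 2 (edgeR adjusted p = 0.0504) and without PBS 3, OAP2 1 or OAP2 2 (edgeR adjusted p up to 0.115). Hmox1, an NRF2 target that degrades haem, had a log2 fold change of 0.37 (edgeR adjusted p = 0.0985), and of 0.50 without PBS 2 (edgeR adjusted p = 0.00573). Without PBS 2 the NRF2 list had 6 rises and no fall, and the iron list 2 rises.

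Of 12 tested metallothioneins and metal or drug transporters, 3 rose and none fell. Mt1, a metal-binding protein, had 39.45, 40.09 and 41.31 FPKM in OAP2 1 to 3, against 32.84, 28.98 and 30.47 FPKM in PBS 1 to 3, and rose by 0.40. Mt2 rose by 0.76, and by 1.07 without PBS 2, and Abcc3, an efflux pump for conjugates, by 1.21. All 3 calls ended without PBS 3, OAP2 1 or OAP2 2, and that of Mt2 also without PBS 1 (edgeR adjusted p up to 0.0604 for Mt1, 0.12 for Mt2 and 0.0959 for Abcc3). Of 16 cytosolic heat shock proteins, 1 rose, against 2.14% of all genes. The small heat shock protein Cryab rose by 1.34, and by 1.71 without PBS 2. That call ended without PBS 1, PBS 3, OAP2 1 or OAP2 2 (edgeR adjusted p up to 0.0992). Bag3, a co-chaperone, had 23.46, 23.49 and 23.34 FPKM in OAP2 1 to 3, against 12.76, 21.96 and 11.09 FPKM in PBS 1 to 3. Only PBS 2 came near the OAP2 values, and the log2 fold change was 0.63 with it (edgeR adjusted p = 0.11) and 0.99 without it (edgeR adjusted p = 0.00106), when 6 members of the list rose.

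Autophagy and lysosome genes had 2 rises and 1 fall among 30 tested members, around a median of 0.06, when 2.14% of all genes rose and 3.11% fell. Sqstm1, the cargo receptor p62, had 499.52, 470.17 and 542.10 FPKM in OAP2 1 to 3, against 340.19, 337.27 and 307.10 FPKM in PBS 1 to 3, a log2 fold change of 0.63 ± 0.09 (edgeR adjusted p = 0.00245). Map1lc3a, a protein of the autophagosome membrane, rose by 1.13, a call that ended without OAP2 1 (edgeR adjusted p = 0.0694). Ctsw, a protease best known in cytotoxic lymphocytes, fell by 1.78, and by 1.15 without PBS 2, a call that ended without OAP2 2 (edgeR adjusted p = 0.0679). Among the OAP2 and PBS libraries Ctsw was highest in PBS 2, at 5.35 FPKM. Markers of T and NK cells summed to 2.09 FPKM there, with Trac alone at 1.87 FPKM. They summed to at most 0.24 FPKM in the OAP2 libraries. In the Oxa libraries Ctsw averaged 8.56 FPKM, while these markers summed to 0.3, 0.5 and 0.73 FPKM. In the APAP libraries Ctsw averaged 0.98 FPKM, and these markers summed to at most 0.03 FPKM. The part of such cells was not tested.

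**Figure D5:**
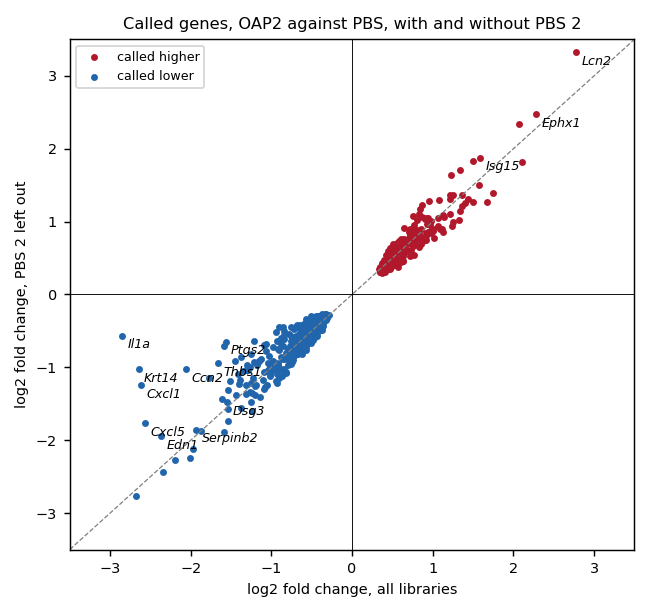
Log2 fold change, OAP2 minus PBS, of each called gene with all 6 libraries (horizontal axis) and without PBS 2 (vertical axis); the dashed line marks equal values. All 632 genes keep their sign; Il1a moves from -2.85 with PBS 2 to -0.57 without it.

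With all libraries, lists of growth and death had few called members. Of 28 mitosis and spindle genes, 1 rose, against 2.14% of all genes. Cenpf, a kinetochore protein, had 24.30, 24.28 and 21.74 FPKM in OAP2 1 to 3, against 13.33, 15.73 and 14.70 FPKM in PBS 1 to 3, a log2 fold change of 0.70 ± 0.11 (edgeR adjusted p = 0.00291). The spindle protein Tpx2 had 0.41 (edgeR adjusted p = 0.0704), and 0.55 without PBS 2 (edgeR adjusted p = 0.0035), when 5 members rose. Of 32 genes of DNA replication and the G1/S step, 25 had a negative log2 fold change, with a median of -0.20, and 2 fell. In 10 of the 32, every OAP2 library lay below every PBS library, against 9.94% of all genes, and in 0 above. Without PBS 2 the median was -0.14, with 2 rises and 2 falls. Ccnd1, cyclin D1, had 53.17, 61.80 and 58.22 FPKM in OAP2 1 to 3, against 80.18, 105.26 and 78.59 FPKM in PBS 1 to 3, and fell by 0.60, a call that ended without OAP2 1 (edgeR adjusted p = 0.0642). Gins1, of the replicative helicase, fell by 0.77, a call that ended without PBS 3 or any 1 of the OAP2 libraries (edgeR adjusted p up to 0.129).

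Of 35 genes of DNA repair, 1 rose and 1 fell, against 2.14% and 3.11% of all genes. Ercc5, an excision nuclease, rose by 0.45 and Fancb, of the Fanconi complex, fell by 0.62. Neither call held without PBS 1, PBS 3, OAP2 1 or OAP2 2, nor did that of Fancb without OAP2 3 (edgeR adjusted p up to 0.0984 and 0.0916). Without PBS 2, 6 repair genes rose and 2 fell, when 8.77% of all genes rose and 7.65% fell. Among 19 p53 targets Plk2 alone was called, and the death receptor gene Tnfrsf10b had a log2 fold change of 0.49 (edgeR adjusted p = 0.077), and 0.63 without PBS 2 (edgeR adjusted p = 0.00989), when 5 members rose and 1 fell. Among 22 genes of the BCL2 family, caspases and death receptors, Bcl2l1, which protects from apoptosis, had 7.43, 9.10 and 8.57 FPKM in OAP2 1 to 3, against 14.43, 10.03 and 14.73 FPKM in PBS 1 to 3. It fell by 0.63, and by 0.79 without PBS 2, a call that ended without PBS 1, PBS 3 or OAP2 1 (edgeR adjusted p up to 0.0962). Mcl1, its relative, had a log2 fold change of -0.24 (edgeR adjusted p = 0.0886). Without PBS 2 this list had 2 rises and 2 falls.

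Housekeeping lists were called in no or few members. No gene was called among 79 cytosolic ribosomal proteins (median -0.04), 22 of cholesterol synthesis (median -0.16, and 0.04 without PBS 2) and 13 encoded by mitochondrial DNA (median 0.09). Among the members with small p-values, the log2 fold change was -0.45 for Rpl30 (edgeR adjusted p = 0.0929), -0.99 for Rpl17 (edgeR adjusted p = 0.223) and -1.11 for Fdps, of isoprenoid synthesis (edgeR adjusted p = 0.101), which became -0.24 without PBS 2, where it stood at 18.40 FPKM. It was 0.23 for mt-Nd2 (edgeR adjusted p = 0.438) and 0.22 for mt-Nd3 (edgeR adjusted p = 0.464). Without PBS 2, 2 genes of cholesterol synthesis rose, a share near the 8.77% of all genes. Of 26 genes of glycolysis and hypoxia, 2 rose and 1 fell, with a median of 0.18. Ndrg1, a hypoxia-induced protein, rose by 0.56, Aldoc, an aldolase, by 1.07, and Hk1, a hexokinase, fell by 0.46. These calls ended without PBS 3 or OAP2 1, those of Ndrg1 and Aldoc also without OAP2 2, those of Aldoc and Hk1 also without PBS 1, and that of Hk1 also without OAP2 3 (edgeR adjusted p up to 0.0915 for Ndrg1, 0.104 for Aldoc and 0.0933 for Hk1).

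Polycomb genes, which keep chromatin silent, had 2 rises and 2 falls among 22 tested members. Cbx2, a reader of the repressive histone mark, had 6.46, 6.74 and 5.41 FPKM in OAP2 1 to 3, against 2.79, 1.86 and 2.25 FPKM in PBS 1 to 3, a log2 fold change of 1.44 ± 0.15 (edgeR adjusted p = 0.000292). Phf19, an accessory of the methylating complex, had 4.46, 4.96 and 4.42 FPKM in OAP2 1 to 3, against 8.34, 6.59 and 7.85 FPKM in PBS 1 to 3, and fell by 0.71. Eed, a core member of that complex, fell by 0.39, a call that ended without any 1 of the libraries except PBS 2 (edgeR adjusted p up to 0.173).

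The remaining rises named by size were Zfp945 (1.495 on the log2 scale), Lrrc51 (1.24), Zfp566 (1.22) and Narf (1.22), and the names of Zfp945 and Zfp566 denote zinc finger proteins. Zfp945 had 7.92, 6.49 and 4.90 FPKM in OAP2 1 to 3, against 2.72, 1.54 and 2.63 FPKM in PBS 1 to 3, and Narf averaged 2.17 ± 0.13 FPKM in OAP2 cells and 0.94 ± 0.20 FPKM in PBS cells (SD, n = 3 each). The calls of Lrrc51 and Zfp566 ended without PBS 3, OAP2 1 or OAP2 2, and that of Zfp566 also without PBS 1 or OAP2 3 (edgeR adjusted p up to 0.145 and 0.101).

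The other treatments shared the PBS libraries, so their values are set side by side without a test between them. For Lcn2 the log2 fold change against PBS was 2.78 for OAP2, -0.07 for Oxa and 0.34 for APAP. For Hspa5 it was 0.75 for OAP2, -0.66 for Oxa and 0.23 for APAP. For Isg15 it was 1.59 for OAP2, 0.23 for Oxa and -0.002 for APAP, and for Rsad2 1.40 for OAP2, -1.02 for Oxa and 0.33 for APAP. For Dsg3 the values were -1.55 for OAP2, -1.11 for Oxa and -0.83 for APAP, and for Serpinb2 -1.93 for OAP2, -2.16 for Oxa and -0.96 for APAP. For Cbx2 they were 1.44 for OAP2, 1.62 for Oxa and 0.93 for APAP.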

How the data were processed

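Poly(A) RNA of 4T1 cells was sequenced in pairs from dUTP libraries, per the labels. Per the submitters' processing notes, the tools were edgeR, DESeq2, StringTie 2.1.6, HISAT2 2.2.1 and cutadapt 1.9, with no roles given, and the build was mm9. Of 29864 gene identifiers matched to GENCODE M21, 87.9% have the chromosome, start and end of GRCm38, the build used here. How reads that fit several genes, and which strand, were counted is not given in the sources used here, so counts of overlapping genes and near-identical copies are less certain. The deposited FPKM values, by their name divided by transcript length and library size, serve here as levels. The deposited counts are estimated counts, whole numbers not scaled between libraries: a count of 4 occurs 7655 times, against 5992 times for 3 and 3357 times for 5, so a count is not a read. The PBS libraries were matched to columns named CON by replicate number.

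Of 29937 genes, 12036 reached 1 FPKM in 3 or more of the 12 libraries and entered the test, and their lowest mean count was 3.17. The model used TMM scaling and was fitted with 1 mean per group over all 12 libraries in edgeR 4.0.16 under R 4.3.3 (glmQLFit and glmQLFTest, 2-sided), and p-values were adjusted by Benjamini and Hochberg over all 12036 genes. Standard errors were approximated from the F statistic, whose square root divides the log2 fold change. Common biological variation was 18.1% (coefficient of variation). Simulated data served to test the script. The totals in the report are of estimated counts and do not give the depth in reads. Whether counting or the spread between libraries limits genes of a few FPKM was not tested, and there are 3 libraries per group.

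The members and the 40 gene lists were chosen with earlier results of these data known, so counts within a list are descriptions and no list was tested. Genes were named by a rule: up to 15 rises and 15 falls by size among called genes whose groups do not overlap, with a mean of at least 2 FPKM in the higher group, the 15 smallest p among genes called in every fit without 1 library, up to 8 called members of each list (or the 2 with the smallest p where fewer than 2 were called), and markers of cell types, leaving out predicted genes and pseudogenes. A few genes named by this rule are left out here. Same-numbered OAP2 and PBS libraries had correlations of deviations of 0.03, -0.048 and -0.076, against -0.181 to 0.189 for differently numbered ones. No pairing by number was seen, but 3 libraries per group cannot exclude it. Tried as well were 19 other settings and 2 more chosen after seeing the data, with limma 3.58.1 and DESeq2 1.42.0 among the tools.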

Additional observations from a re-analysis of the deposited data

How the results depend on the processing

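With all libraries, 632 genes were called, 258 higher and 374 lower in OAP2 cells. No gene named by the rule changed its direction past the threshold under any alternative. Lists were compared only by their counts of called members, and the balance of some turned. The p53 targets had 0 rises and 1 fall with PBS 2, and 5 rises and 1 fall without it. Over all genes, falls outnumbered rises with PBS 2, and rises outnumbered falls without it (1055 higher, 921 lower). DESeq2 called 1267 genes (613 higher, 654 lower), the fit without a filter on low values 360 (140 higher, 220 lower), a test against a fold of 1.2 (glmTreat) 161 (55 higher, 106 lower), and voom with sample quality weights 2836 (1510 higher, 1326 lower). A fit to the 6 libraries alone called 38 (8 higher, 30 lower). Leaving out 1 library gave 252 to 1976 calls, 91 to 1055 higher and 161 to 921 lower, with the most without PBS 2 and the fewest without OAP2 1. Leaving out replicate 2 of both groups gave 1522 (768 higher, 754 lower). With replicate number as a block, 513 genes were called (202 higher, 311 lower), and whether the numbers pair the libraries is not known. Size factors by RLE gave 645 calls, upper-quartile scaling 678, filters on other rules 566 and 655, and limma on log2(FPKM + 1) 558 and on log2(FPKM + 0.1) 549. Chosen after seeing the data, counts divided by 4 gave 641 calls, and the 6 libraries without PBS 2 gave 673. The cause of these differences was not tested.

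Limits: there are 3 libraries per group, of unknown independence, and small changes can be missed. The count of calls depends on PBS 2 and on whether the Oxa and APAP libraries are in the fit. Genes of up to 2 FPKM were called least often (2.54%).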

Other observations

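These genes were chosen after their values were seen. Beside Ifi203, Mndal and Ifi202b of the interferon-inducible p200 family on chromosome 1 rose in OAP2 cells. Mndal had 13.60, 13.89 and 12.38 FPKM in OAP2 1 to 3, against 7.53, 5.75 and 6.89 FPKM in PBS 1 to 3, and rose by 0.99 on the log2 scale (edgeR adjusted p = 0.00151). Ifi202b rose by 0.69 (edgeR adjusted p = 0.00612), and Ifi204 had 0.26 (edgeR adjusted p = 0.113). Reads may be split between these near-identical copies.

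Enzymes of lipid metabolism were called in both directions, and some that rose are given first. Acaa1a, a peroxisomal thiolase, had 8.92, 8.78 and 7.57 FPKM in OAP2 1 to 3, against 4.89, 5.24 and 4.54 FPKM in PBS 1 to 3, and rose by 0.80. Acox2, a peroxisomal oxidase, rose by 0.86, Hacd2, of fatty acid elongation, by 0.64, and Acot2, a mitochondrial thioesterase, by 0.45. Each of these calls held without any 1 of the 6 libraries. In the pathway annotation of the authors' deposited table, 3 of 21 tested genes of unsaturated fatty acid synthesis rose (2.14% of all genes rose) and none fell. Of 24 of fatty acid degradation 1 rose and 1 fell, and of 57 of the peroxisome 3 rose and none fell. Of 62 of glycerophospholipid metabolism 2 rose and 5 fell (Gpd2, Pcyt1a, Pcyt1b, Pgs1 and Pla2g4a). Of 21 of ether lipid metabolism 1 rose and 2 fell (3.11% of all genes fell). Atf5, a transcription factor of the stress response, had 150.73, 156.64 and 167.91 FPKM in OAP2 1 to 3, against 91.48, 63.74 and 83.77 FPKM in PBS 1 to 3, and rose by 1.00. Il6st, the receptor chain shared by Lif and interleukin 6, rose by 0.75, while Lif itself fell.

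Chac1, a glutathione-degrading target of CHOP, had 99.03, 95.03 and 94.97 FPKM in OAP2 1 to 3, against 46.19, 155.34 and 33.80 FPKM in PBS 1 to 3. Its log2 fold change was 0.31 with PBS 2 (edgeR adjusted p = 0.738) and 1.28 without it (edgeR adjusted p = 0.000336). Apln, a peptide that acts on vessels, fell by 1.24, and Fgfbp1, which releases fibroblast growth factors from matrix, by 1.32. Rps18-ps4, a ribosomal protein pseudogene by its name, was listed at 0 FPKM in all 3 OAP2 libraries and PBS 3, against 323.31 FPKM in PBS 1 and 322.86 FPKM in PBS 2.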
